A study of Homo sapiens with 2 samples.

Results

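The transcripts described here are those of CD1D and of the machinery of MHC class II presentation, in cells labelled HAL-01. The genes were taken by name: the CD1 genes, CD74, CIITA and every gene whose symbol starts with HLA-D. Of 27 such genes in the GENCODE 29 annotation, 10 were listed in at least 1 library, of 16145 genes listed in all. CD1D and HLA-DRA lead the set because they were chosen by their FPKM in these same libraries, between which they were known to differ, so their differences are a description with no test. HAL-01 is an established human cell line whose labels call it pre-B acute lymphoblastic leukaemia. RNA-seq was run on 1 library of a culture labelled AG, kept for 24 h with 1,5-AG (1,5-anhydroglucitol, a polyol close to glucose) at 0.8 mM, and on 1 library of a culture labelled Control, for which the labels state no treatment. Each group is a single library, so the differences could not be set against a spread between replicates and carry no p-values.

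CD1 molecules are relatives of MHC class I that bind lipids in place of peptides and show them to T cells. CD1D is the member seen by invariant natural killer T cells, pairs with beta-2-microglobulin, and cycles through endosomes and lysosomes, where lipids are exchanged in its groove. MHC class II molecules are pairs of an alpha and a beta chain (HLA-DR, -DQ and -DP) that carry peptides made in the same compartments to CD4+ T cells. HLA-DM and HLA-DO edit the peptide, CD74 (the invariant chain) guards the groove, and CIITA is the coactivator without which class II genes are little transcribed.

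Levels are FPKM, fragments per kilobase of gene scaled to the size of the library, as the authors deposited them. The steps between low values implied 14857372 fragments in AG and 16240451 in Control, and the whole number of fragments behind a gene was recovered from these totals. Intervals given as counting intervals are exact 95% intervals on these fragments and cover counting error only. The files hold no zeros, so a gene without a value is not read as absent. The label was set beside lineage markers. Of 14 B lineage markers 6 were listed in AG and 8 in Control, and those listed had summed levels of 3.28 FPKM in AG and 2.86 FPKM in Control. Of 10 granulocyte and promyelocyte markers 5 were listed in each library, and those listed had summed levels of 472.5 FPKM in AG and 937 FPKM in Control, of which CTSG alone held 194 FPKM in AG and 743 FPKM in Control. In both libraries the listed B lineage markers thus lay far below these, which goes against a pre-B label. The cells are named here by their label only.

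CD1D had the highest level in AG of those genes of the set that had a value. It had 22.7 FPKM in AG, resting on 1467 fragments, against 3.59 FPKM in Control, resting on 254 fragments. The counting intervals of the level were 21.5 to 23.8 FPKM in AG and 3.16 to 4.06 FPKM in Control. That they lie apart is a description, since CD1D was chosen for its difference. CD1D ranked 892 of the 13351 genes listed in AG and 3675 of the 13342 listed in Control, so that 93.3% and 72.5% of listed genes lay below it in AG and in Control. The ratio of AG to Control was 6.31 (counting interval 5.52 to 7.24), and on the log2(FPKM + 1) scale the difference was 2.37. In bulk RNA a change in the number of cells that express a gene and a change in RNA per cell cannot be told apart.

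CD1D (ENSG00000158473) is protein-coding and lies on the plus strand of chromosome 1, from 158179947 to 158184896 in GRCh38, the build the submitters' processing notes name as hg38. The deposited values fitted a gene length of 4359 bases, whereas the exons of GENCODE 29 cover 2253 bases, which implies a longer gene model behind the values. This length enters both libraries alike and leaves the ratio as it is. Of the stretches of 50 bases in its GENCODE 29 transcript, 0.454% also occur in a transcript of another gene, CD1A. RefSeq (GRCh38.p14) gives CD1D 2 transcription starts that are 948 bases apart. The windows from 250 bases before to 50 bases after each start are shown because CD1D had the highest ratio of the set, with matches to the nuclear receptor motif AGGTCA or GGGTCA, on either strand, in capitals.
CD1D upstream start, chr1:158179697-158179996, plus strand: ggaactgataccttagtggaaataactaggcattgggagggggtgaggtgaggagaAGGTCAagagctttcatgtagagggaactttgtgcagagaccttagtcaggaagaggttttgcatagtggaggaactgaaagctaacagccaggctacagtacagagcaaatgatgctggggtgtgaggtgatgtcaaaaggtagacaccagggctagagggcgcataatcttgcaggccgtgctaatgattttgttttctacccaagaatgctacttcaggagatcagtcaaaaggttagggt
CD1D downstream start, chr1:158180645-158180944, plus strand: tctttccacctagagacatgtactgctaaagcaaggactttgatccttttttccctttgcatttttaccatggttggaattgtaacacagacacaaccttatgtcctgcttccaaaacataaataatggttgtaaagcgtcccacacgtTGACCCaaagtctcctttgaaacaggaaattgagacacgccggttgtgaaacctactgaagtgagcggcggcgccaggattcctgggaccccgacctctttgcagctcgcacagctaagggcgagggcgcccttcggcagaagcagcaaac
Each window held 1 match, 194 bases before the upstream start and 101 bases before the downstream one. This motif was chosen after the values were seen and occurs in 25.6% of all 35116 RefSeq windows of this length, so a match is common.

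**Figure D1:**
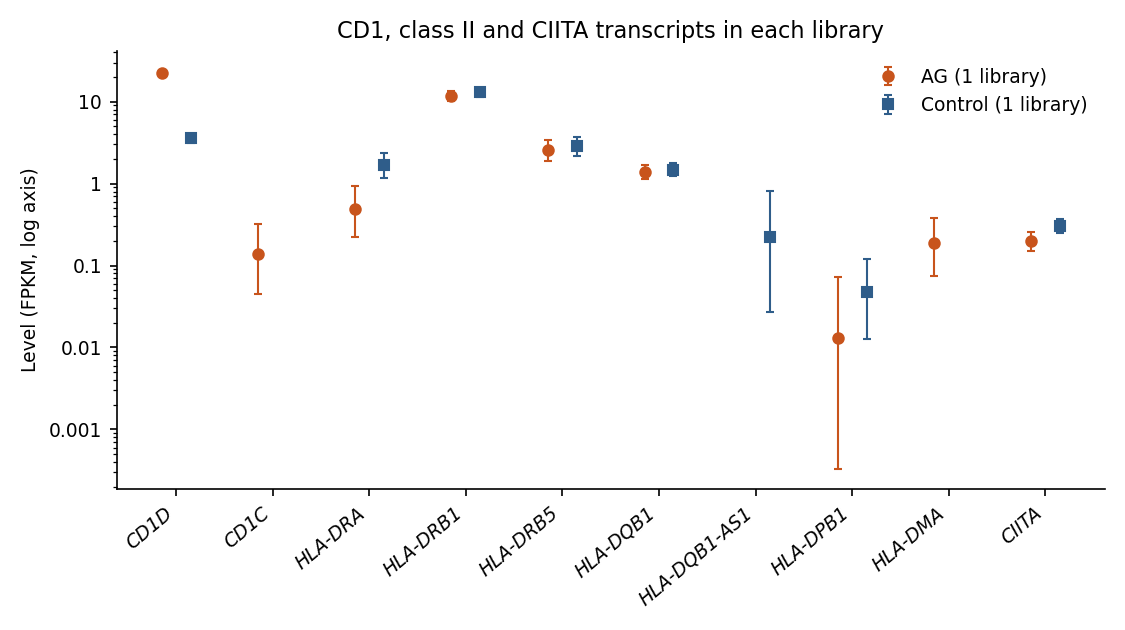
Level of the 10 listed genes in FPKM (log axis) in AG (circles, 1 library) and Control (squares, 1 library), with exact 95% Poisson counting intervals as bars. CD1D stands at 22.7 FPKM in AG and 3.59 FPKM in Control and HLA-DRA at 0.487 and 1.68 FPKM in AG and Control, while HLA-DRB1, HLA-DRB5 and HLA-DQB1 have overlapping intervals.

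CD1C was the other CD1 gene with a value. CD1C, which presents lipids on dendritic cells and some B cells, had 0.138 FPKM in AG on 5 fragments and no value in Control. CD1A, CD1B and CD1E, the remaining genes of the cluster, were not analysed here. Of 36 annotated genes within 500 kb of the CD1D start, 8 were listed in at least 1 library and 5 in both. Farther from CD1D in this window values were low. FCRL1, an Fc receptor-like protein of B cells, had 0.0682 FPKM in AG on 4 fragments and 0.0468 FPKM in Control on 3 fragments, a ratio of 1.46 (counting interval 0.247 to 9.95).

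The gene nearest to CD1D also had a high ratio. ELL2P1, a processed pseudogene of the elongation factor gene ELL2, lies on the minus strand from 158175850 to 158177755, and 2191 bases separate it from CD1D. It had 1.13 FPKM in AG on 32 fragments and 0.0969 FPKM in Control on 3 fragments. The ratio was 11.7 (counting interval 3.65 to 59.5), which overlaps the interval of CD1D. ELL2P1 was singled out after its values were seen. Of its stretches of 50 bases 23.7% also occur in ELL2 transcripts, and ELL2 itself was not analysed here. The part of the shared sequence in this value was not tested.

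**Figure D2:**
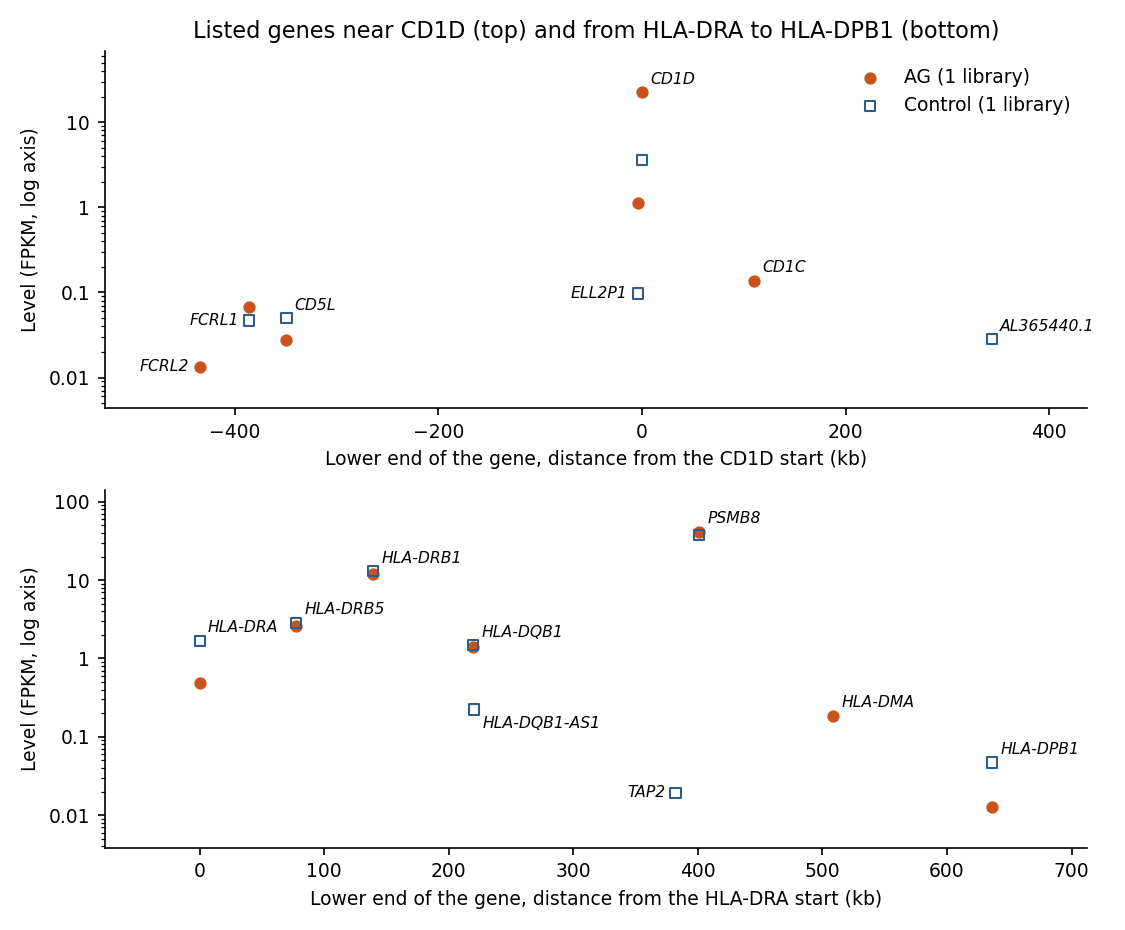
Level in FPKM (log axis) of listed genes against the distance of their lower end from the CD1D start (top) and from the HLA-DRA start (bottom) in kb, in AG (filled circles, 1 library) and Control (open squares, 1 library). Near CD1D, ELL2P1 and CD1D are both higher in AG, and in the class II region HLA-DRA is lower in AG while PSMB8 and the HLA-DR and HLA-DQ beta chain genes lie on top of each other.

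HLA-DRA, the alpha chain that every HLA-DR molecule shares, was low in both libraries and lower in AG. It had 0.487 FPKM in AG on 9 fragments, against 1.68 FPKM in Control on 34 fragments. The counting intervals of the level were 0.223 to 0.924 FPKM in AG and 1.17 to 2.35 FPKM in Control. That they do not overlap is a description, since HLA-DRA was chosen for its difference. The ratio was 0.289 (counting interval 0.122 to 0.616), and the log2 difference was -0.85 with a pseudocount of 1 FPKM. With a pseudocount of 5 FPKM it was -0.28, within 1.5-fold. HLA-DRA (ENSG00000204287) is protein-coding and lies on the plus strand of chromosome 6, from 32439842 to 32445046. It shares no stretch of 50 bases with a transcript of another gene, and no other annotated exon overlaps it.

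The beta chain genes that pair with HLA-DRA differed little. HLA-DRB1, the main DR beta chain gene, had 11.8 FPKM in AG on 216 fragments and 12.9 FPKM in Control on 258 fragments, a ratio of 0.915 (counting interval 0.760 to 1.10). HLA-DRB5, a second DR beta chain gene carried by some haplotypes, had 2.58 FPKM in AG on 48 fragments and 2.86 FPKM in Control on 58 fragments, a ratio of 0.905 (0.604 to 1.35). Both intervals include 1. That of HLA-DRB1 does not overlap the interval of HLA-DRA, a gene chosen for its difference, so this contrast is a description. The level of HLA-DRB1 was 24.3 times that of HLA-DRA in AG and 7.68 times in Control. These beta chain genes are near copies and are uncertain: of their stretches of 50 bases, 9.92% of HLA-DRB1 and 8.42% of HLA-DRB5 also occur in transcripts of other genes, among them each other.

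Among the remaining class II genes HLA-DQB1, the DQ beta chain, had 1.40 FPKM in AG on 102 fragments and 1.48 FPKM in Control on 118 fragments, a ratio of 0.945 (counting interval 0.718 to 1.24). Its partner on the opposite strand, HLA-DQB1-AS1, had 0.223 FPKM in Control on 2 fragments and no value in AG. The antisense gene shares 241 bases with the exons of HLA-DQB1, and with the strand setting not given their reads cannot be told apart. HLA-DPB1, the DP beta chain, was close to the limit of detection in both libraries, with 0.0129 FPKM in AG on 1 fragment and 0.0472 FPKM in Control on 4 fragments. HLA-DMA, a chain of the peptide editor, had 0.187 FPKM in AG on 7 fragments and no value in Control. Its exons overlap those of BRD2 on the opposite strand and those of AL645941.2 on the same strand. CD74, HLA-DMB, HLA-DOA, HLA-DOB, HLA-DPA1, HLA-DQA1, HLA-DQA2 and HLA-DQB2 were not analysed here.

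The promoters of class II genes share an X box, bound by the RFX complex, and a Y box, an inverted CCAAT bound by NF-Y, on which CIITA acts. The windows of the beta chain genes with the most fragments are shown because these genes kept similar levels in both libraries. They run 5′ to 3′ on the minus strand of chromosome 6, with the letters CAACNGATG (X box) and CTGATTGG (Y box), searched on both strands, in capitals.
HLA-DRB1, chr6:32589799-32590098: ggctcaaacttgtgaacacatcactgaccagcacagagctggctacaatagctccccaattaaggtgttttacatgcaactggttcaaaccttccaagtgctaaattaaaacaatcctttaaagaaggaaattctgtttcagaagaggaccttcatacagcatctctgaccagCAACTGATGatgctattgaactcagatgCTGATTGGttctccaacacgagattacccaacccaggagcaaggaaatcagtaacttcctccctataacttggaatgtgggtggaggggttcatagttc
HLA-DRB5, chr6:32530238-32530537: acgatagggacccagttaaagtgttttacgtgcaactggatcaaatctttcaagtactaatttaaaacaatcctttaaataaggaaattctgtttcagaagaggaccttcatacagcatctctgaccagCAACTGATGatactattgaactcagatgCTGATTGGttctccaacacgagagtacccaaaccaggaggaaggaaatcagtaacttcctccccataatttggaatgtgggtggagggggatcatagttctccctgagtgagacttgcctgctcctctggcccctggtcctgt
HLA-DQB1, chr6:32666608-32666907: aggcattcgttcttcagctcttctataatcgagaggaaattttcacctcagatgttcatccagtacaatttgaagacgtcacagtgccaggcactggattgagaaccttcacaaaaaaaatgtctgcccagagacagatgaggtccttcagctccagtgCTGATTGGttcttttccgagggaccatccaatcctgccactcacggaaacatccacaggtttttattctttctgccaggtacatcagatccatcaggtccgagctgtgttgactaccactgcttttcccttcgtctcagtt
The X box letters begin 77 bases before the RefSeq start in HLA-DRB1 and 121 bases before it in HLA-DRB5. The Y box letters begin 49, 93 and 91 bases before the start in HLA-DRB1, HLA-DRB5 and HLA-DQB1. The X and Y box letters do not overlap in these windows and were chosen after the windows were read. Over all 35116 windows the X box letters occur in 0.441% and the Y box letters in 3.97%. Neither set of letters was found in the windows of CD1D, CD1C or HLA-DPB1. The Y box letters also occur in the window of HLA-DMA, 82 bases before the start, though HLA-DMA rests on 7 fragments in AG. The shorter core of the Y box, ATTGG, occurs in 34.6% of all windows and was found in the upstream window of CD1D, 219 bases before the start, and in that of HLA-DPB1. Of the 10 listed genes, 7 had a RefSeq window. There was none for HLA-DRA, CIITA or HLA-DQB1-AS1, so HLA-DRA could not be compared with the genes shown. Whether the letters bear on the levels was not tested.

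CIITA, the class II coactivator, was low and somewhat lower in AG. It had 0.198 FPKM in AG on 61 fragments and 0.302 FPKM in Control on 102 fragments, a ratio of 0.654 (counting interval 0.468 to 0.907). The levels rest on a gene length of 20763 bases that pools many transcripts, which lowers the FPKM of this gene relative to compact ones. Exons of DEXI, on the opposite strand, cover 11.6% of the exon bases of CIITA, and reads in them cannot be told apart without the strand setting. Those of AC133065.3, on the same strand, cover 11.5%, which a strand setting would not resolve.

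The factors that act with CIITA and passed the filter on low values were within 1.5-fold; CIITA and PRDM1 lay under it. Of 22 genes on the list of class II transcription 9 were listed in both libraries. All 7 with a mean of at least 1 FPKM were within 1.5-fold. Among all expressed genes only 6.93% were past 1.5-fold in either direction, so such a count is common. The median log2 difference was 0.02 beside -0.03 over all expressed genes. IRF8, a transcription factor of myeloid and B cells, had 195.9 FPKM in AG and 189 FPKM in Control. NFYC, the NF-Y subunit gamma, had 135 FPKM in AG and 149.9 FPKM in Control. RFXAP, a subunit of the RFX complex, had 4.58 FPKM in AG and 4.46 FPKM in Control. These values show an RFX subunit and an NF-Y subunit at like levels in both libraries. IRF1, which carries the interferon signal to the CIITA promoter, had 2.18 FPKM in AG and 2.01 FPKM in Control. The histone deacetylase HDAC2 had 16.4 FPKM in AG and 16.6 FPKM in Control. The acetyltransferase EP300 had 16.1 FPKM in AG and 17.4 FPKM in Control. PRDM1, a repressor of CIITA in plasma cells, was under 1 FPKM on average, with 0.848 FPKM in AG and 0.648 FPKM in Control, a ratio of 1.31 (counting interval 0.944 to 1.82).

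**Figure D3:**
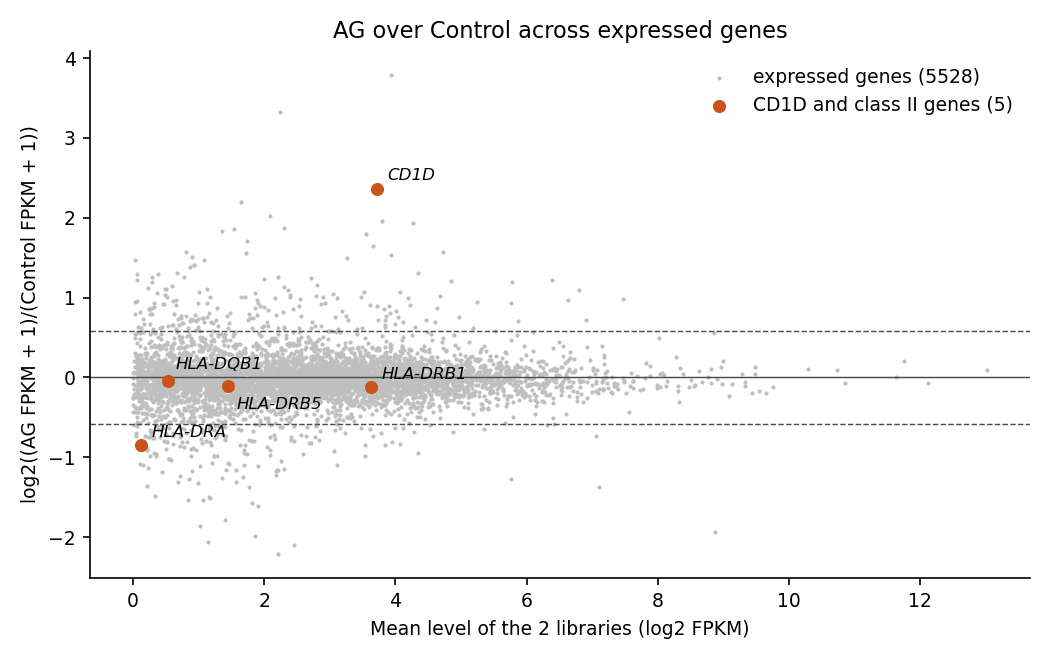
Difference on the log2(FPKM + 1) scale, AG over Control, against the mean level of the 2 libraries in log2 FPKM for 5528 expressed genes (grey) and the 5 expressed CD1 and class II genes (orange); dashed lines mark 1.5-fold. CD1D stands at 2.37 and HLA-DRA at -0.85, and the 3 beta chain genes lie between -0.12 and -0.05.

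A total of 5528 genes had a value in each library and averaged 1 FPKM or more. On the log2(FPKM + 1) scale 199 of them (3.60%) were higher in AG by 1.5-fold or more and 184 (3.33%) were lower by as much, 383 (6.93%) in all. Of the 10 listed CD1 and class II genes 5 entered this comparison, of which CD1D was higher, HLA-DRA was lower and 3 were within 1.5-fold. Since CD1D and HLA-DRA were chosen for their differences, this count is a description. HLA-DRA passed the filter only through its level in Control. In order of level CD1D came first in AG, followed by HLA-DRB1, HLA-DRB5, HLA-DQB1 and HLA-DRA. In Control HLA-DRB1 came first, followed by CD1D, HLA-DRB5, HLA-DRA and HLA-DQB1. Such an order depends on the gene length behind each value. It was 4904 bases for HLA-DQB1, with 118 fragments in Control, and 1244 bases for HLA-DRA, with 34. In Control the counting intervals of CD1D and HLA-DRB5, of HLA-DRB5 and HLA-DRA, and of HLA-DRA and HLA-DQB1 overlapped. In AG the intervals of these 5 genes did not overlap between neighbours.

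On the list of CD1D regulators the nuclear receptor genes RARA and PPARD were higher in AG. In human dendritic cells retinoid signalling, also downstream of PPARG, is known to raise CD1D, and ETS and SP factors are known to act on its promoter. Of 18 genes on this list 9 were listed in both libraries and 8 had a mean of at least 1 FPKM. Of these 8, RARA and PPARD (2) were 1.5-fold or more above Control and 0 were lower, beside 3.60% and 3.33% of all expressed genes, and the median log2 difference was -0.16. RARA, a retinoic acid receptor, had 9.79 FPKM in AG on 690 fragments and 4.71 FPKM in Control on 363 fragments, a ratio of 2.08 (counting interval 1.83 to 2.37). PPARD, a lipid-sensing nuclear receptor, had 18.5 FPKM in AG on 1224 fragments and 10.5 FPKM in Control on 757 fragments, a ratio of 1.77 (1.61 to 1.94). Both were at least 1.5-fold higher, less than CD1D itself. Whether either receptor bears on CD1D in these cells was not tested.

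The ETS factors and the remaining receptors on the list were level or slightly lower. ELF1, an ETS factor, had 52.9 FPKM in AG and 64.5 FPKM in Control, a ratio of 0.820 (counting interval 0.785 to 0.857). FLI1 and ETS1, also ETS factors, had 21.2 and 11.7 FPKM in AG and 24.0 and 13.7 FPKM in Control. RXRB, a partner of retinoid and lipid receptors, had 7.67 FPKM in AG and 9.65 FPKM in Control, a ratio of 0.794 (0.701 to 0.899). VDR, the vitamin D receptor, and the GC-box factor SP3 had 7.54 and 8.07 FPKM in AG and 7.34 and 8.98 FPKM in Control. LEF1, a WNT pathway factor, had 0.414 FPKM in AG and 0.482 FPKM in Control. SP1 had 24.2 FPKM in AG and no value in Control, and CRABP2, a retinoic acid carrier, had 0.560 FPKM in AG on 9 fragments and no value in Control. Without genes whose exons overlap another gene or that have pseudogenes, the median of the list was 0.28 instead of -0.16 and 1 member was at least 1.5-fold higher.

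**Figure D4:**
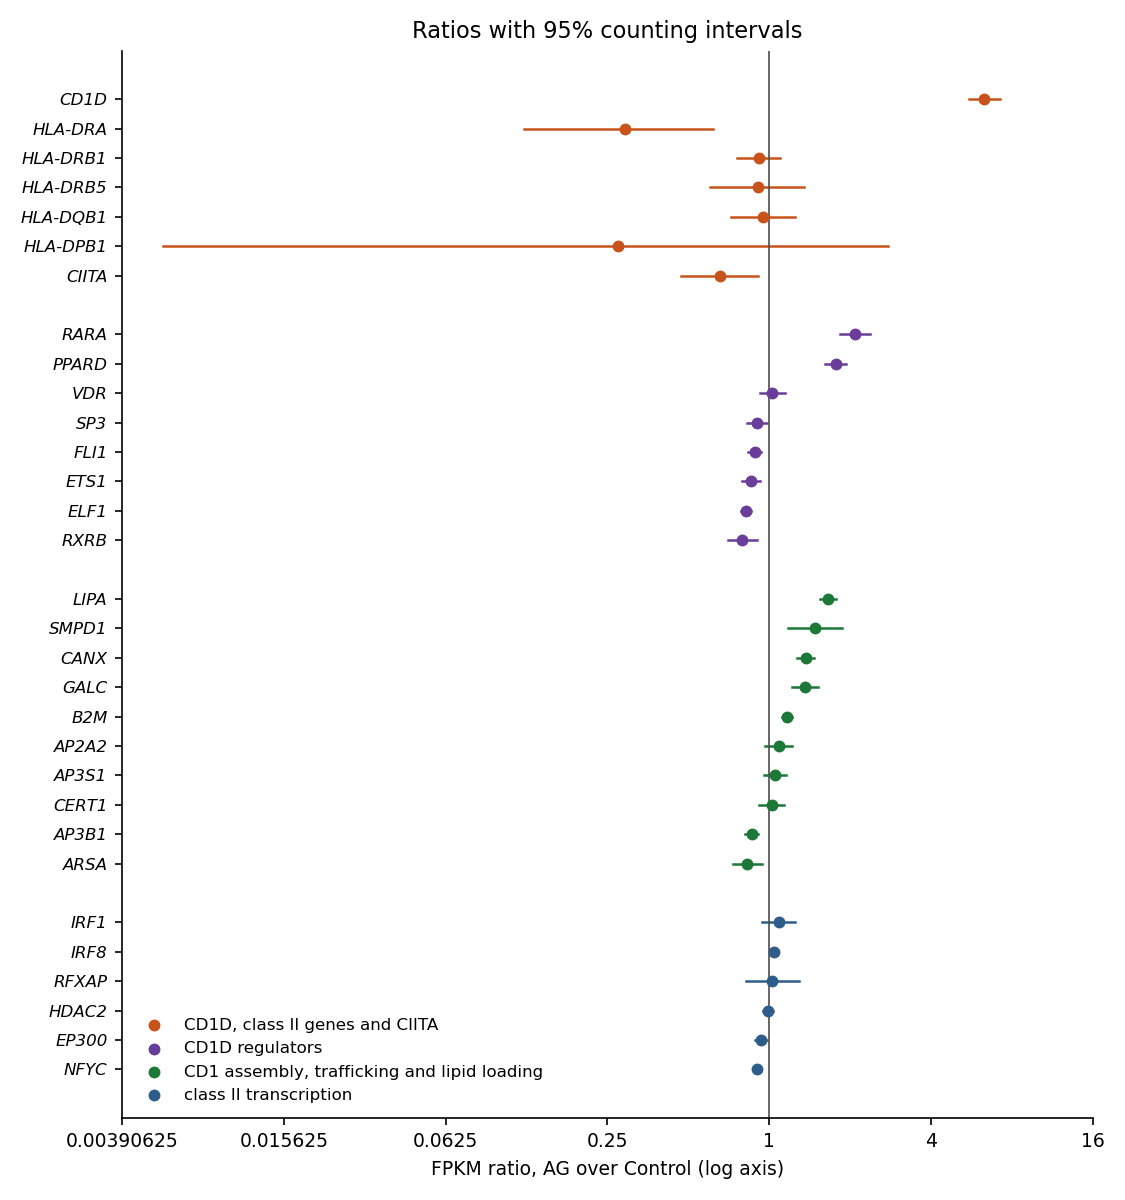
Ratio of AG to Control FPKM (log axis) with exact 95% counting intervals, 1 library per group, for CD1D, class II genes and CIITA and for expressed members of 3 lists. CD1D lies at 6.31, RARA, PPARD and LIPA at 1.66 to 2.08, HLA-DRA at 0.289, and the class II transcription factors close to 1.

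Among genes that assemble CD1D or handle its lipids LIPA was higher in AG. Of 36 genes on this list 12 were listed in both libraries and 11 had a mean of at least 1 FPKM, of which 1 was at least 1.5-fold higher and 0 were lower, beside 3.60% and 3.33% of all expressed genes. No member was past 1.5-fold when genes of uncertain assignment, those with overlapping genes or pseudogenes, were left out. The median log2 difference was 0.21, beside -0.03 over all expressed genes. LIPA, the lysosomal acid lipase, had 30.4 FPKM in AG on 2207 fragments and 18.3 FPKM in Control on 1455 fragments, a ratio of 1.66 (counting interval 1.55 to 1.77). B2M, the light chain of CD1D and of class I molecules, had 47.3 FPKM in AG and 40.7 FPKM in Control, a ratio of 1.16 (1.11 to 1.22). AP3B1, a subunit of the AP-3 adaptor that sorts cargo to lysosomes, had 26.4 FPKM in AG and 30.7 FPKM in Control. The CD1D heavy chain therefore had a much larger ratio than its light chain.

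The enzymes named here degrade sphingolipids in lysosomes and were within 1.5-fold. SMPD1, the acid sphingomyelinase, had 4.37 FPKM in AG and 2.97 FPKM in Control, a ratio of 1.47 (counting interval 1.17 to 1.86). GALC, the galactosylceramidase, had 7.19 FPKM in AG and 5.28 FPKM in Control, a ratio of 1.36 (1.22 to 1.52). ARSA, the arylsulfatase that acts on sulfatide, had 6.58 FPKM in AG and 7.93 FPKM in Control, the lowest ratio of the list at 0.829 (0.731 to 0.940). The lipid transfer genes MTTP and PSAP were not analysed here.

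Genes of class II processing and transport had no common direction. Of 29 genes 12 were listed in both libraries and 11 had a mean of at least 1 FPKM, of which CTSD was at least 1.5-fold higher, CST7 was lower by as much and 9 stayed within that range, beside 3.60% higher and 3.33% lower among all expressed genes. The median log2 difference was -0.04. CTSD no longer counted without genes of uncertain assignment or with a pseudocount of 5 FPKM. CTSD, the lysosomal protease cathepsin D, had 12.3 FPKM in AG and 7.08 FPKM in Control, a ratio of 1.74 (counting interval 1.58 to 1.92). CST7, an inhibitor of lysosomal cysteine proteases, had 1.44 FPKM in AG on 19 fragments and 9.47 FPKM in Control on 137 fragments, a ratio of 0.152 (0.0886 to 0.246). CD63, LAMP1 and LAMP2, membrane proteins of late endosomes and lysosomes, had 94.5, 42.5 and 33.9 FPKM in AG and 102 FPKM, 39.4 FPKM and 34.9 FPKM in Control. These membrane proteins were within 1.5-fold. The main class II proteases CTSS and CTSL, and IFI30, were not analysed here.

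Most markers of professional antigen-presenting cells had no value in either library, which is not read as absence. Lack of a value was common on other lists too. Of 36 CD1 assembly genes 12 were listed in either library, and of 22 class II transcription genes 9 were. Of 10 dendritic cell markers 2 were listed in AG and 1 in Control, and those listed had summed levels of 0.190 FPKM in AG and 0.106 FPKM in Control. Of 10 monocyte and macrophage markers 4 were listed in AG and 1 in Control, and those listed had summed levels of 1.67 FPKM in AG and 0.871 FPKM in Control. FCGR3A, CD163 and CD68 were listed in AG only, on 14, 4 and 2 fragments. Of the 16145 genes listed in either library 10548 were listed in both, so these gaps are not read as a difference. Of the granulocyte and promyelocyte markers, S100A9 had 131 FPKM in AG and 66.3 FPKM in Control and LYZ had 104 FPKM in AG and 75.6 FPKM in Control. ELANE had 41.8 FPKM in AG and 47.6 FPKM in Control, and MPO had 1.70 FPKM in AG and 4.75 FPKM in Control. The listed markers of this lineage thus had no common direction. The part of these markers' cells in the CD1D and HLA-DRA values was not tested.

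By the FPKM ratio over the 2 libraries, the protein-coding genes next to CD1D among 2890 with a mean of at least 5 FPKM were FGR above it and TMEM160, PLIN2 and HK3 below it. FGR, a SRC family kinase, had a ratio of 24.7, and TMEM160, PLIN2 and HK3 had ratios of 4.45, 4.21 and 4.02. CD1D ranked 2 of these genes, a set it enters through its level in AG, and 14 by ratio of all 5528 expressed genes. Its counting interval overlapped that of TMEM160 (3.29 to 6.11) but not those of FGR, PLIN2 and HK3. Those next to HLA-DRA among 4442 with a mean of at least 1 FPKM were CTSG, ASF1B and DMRT3 with lower ratios, from 0.247 for DMRT3 to 0.261 for CTSG. DEPTOR, GON7 and PRLR had higher ratios, from 0.294 for DEPTOR to 0.321 for PRLR. All 6 lie inside the counting interval of HLA-DRA, so its place among them is not resolved at this depth.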

How the data were processed

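The deposited values are FPKM per gene, 1 library per file, made by the authors. Per the submitters' processing notes, the tools were HISAT2, HTSeq, Cufflinks and Trimmomatic, with no versions, and the build was hg38. The libraries came from Trizol-extracted RNA and a stranded mRNA kit, per the labels' protocols. Filters, strandedness in counting and the annotation behind the values are not given here.

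Genes were matched by Ensembl ID to GENCODE 29, which holds 97.1% of the 16145 listed IDs. For genes with a single transcript, the product of FPKM and exon length was a whole number of fragments (tolerance 0.01) in 88.1% of 5259 genes in AG and 88.4% of 5315 genes in Control, at the totals given above. Listed genes held about 45.6% of the total in AG and 45.1% in Control. The fragment pair and the gene length behind a gene were those that made both values whole, nearest to the GENCODE 29 length, and were recovered for 98.8% of 5528 expressed genes. Ratios have exact Clopper-Pearson 95% intervals and levels exact Poisson 95% intervals. Fragments are not independent molecules.

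A gene counted as expressed where each library had a value and the mean reached 1 FPKM. The difference was taken on log2(FPKM + 1), AG minus Control, a scale that shrinks differences of low genes. A gene counted as higher or lower from 1.5-fold. No test between conditions was possible and no count model was fitted. The recovery of fragments and the cover of the ratio intervals were tested on simulated data.

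The genes and lists were chosen with earlier results of these data known. Named were every listed gene of the set, all members of the lists of class II transcription and CD1D regulators, in each other list the members past 1.5-fold and the 3 highest by mean FPKM, and up to 3 genes on either side of CD1D and HLA-DRA by ratio. A few list members are not reported here. The sphingolipid enzymes, the nearby genes, the lineage markers and CD80 were added after their values were seen. Computation used scipy 1.17.1 and numpy 2.4.6 under Python 3.11.15, with pandas 2.3.3 for tables and matplotlib 3.10.9 for plots.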

Additional observations from a re-analysis of the deposited data

How the results depend on the processing

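Of 188 values recomputed under 8 alternatives, 164 stayed within their counting interval (for list medians, the median bounds of the members) or, for counts, within 1.5 times, and 24 did not. CD1D stayed at least 1.5-fold higher in AG under both other pseudocounts and both other scalings. The size of its difference, for which it was chosen, fixed this in advance. Some of the values that stayed were also fixed, since a change of fold cannot move a median. With a pseudocount of 0.1 FPKM the log2 differences of CD1D and HLA-DRA were 2.63 and -1.60, with 303 genes higher and 328 lower. With 5 FPKM they were 1.69 and -0.28, with 64 genes higher and 36 lower and 0 higher members of class II processing. A mean of at least 5 FPKM left 76 higher and 41 lower genes. A fold of 2 left 65 and 49, and 0 higher members in class II processing, CD1 assembly and CD1D regulators. Leaving out genes of uncertain assignment, 2776 of the expressed ones, gave 0 higher members in class II processing, 0 in CD1 assembly and 1 in CD1D regulators, whose median was 0.2786. The median of the class I list, 0.15 with all expressed members, was -0.0475 without such genes and -0.0532 with no filter on low values. The shifts under the filters follow from which genes enter. The 5 other genes of the set with values in both libraries stayed below 0 in all 20 values under other pseudocounts and scalings. This outcome was fixed in advance: a pseudocount cannot change the sign, and the scalings were too small to do so. Of these 5 genes only CIITA had a ratio interval that left out 1. Scaling by the median of ratios multiplied AG by 1.03. No paired analysis was possible because each group has 1 library. Genes on few fragments, among them HLA-DPB1, HLA-DMA and CD1C, are limited by depth.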

Other observations

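The class I pathway, which shares beta-2-microglobulin with CD1D, had few genes with values in both libraries. Of 29 class I and class I-like genes 7 were listed in both libraries and 4 had a mean of at least 1 FPKM. All 4 were within 1.5-fold, beside 6.93% of all expressed genes past it in either direction. Their median log2 difference was 0.15. PSMB8, an immunoproteasome subunit encoded inside the class II region, had 41.6 FPKM in AG and 37.5 FPKM in Control, a ratio of 1.11 (counting interval 1.04 to 1.18). ERAP1, which trims peptides for class I, had 13.1 FPKM in AG and 11.7 FPKM in Control.

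Few costimulatory genes passed the filter on low values. Of 16 genes on this list 6 were listed in both libraries and 2 had a mean of at least 1 FPKM. Both were within 1.5-fold, beside 6.93% of all expressed genes past it in either direction. CD58, the ligand of CD2, had 9.02 FPKM in AG and 9.46 FPKM in Control. CD84, a receptor of the SLAM family, had 5.82 FPKM in AG and 7.42 FPKM in Control, a ratio of 0.784 (counting interval 0.715 to 0.860). ICOSLG, the ligand of ICOS, had 0.778 FPKM in AG and 0.791 FPKM in Control. CD80, a ligand of CD28, had 0.0209 FPKM in AG on 1 fragment and no value in Control.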
